A study of Mus musculus with 12 samples.

Results

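Haem, the iron-porphyrin that cytochromes P450 need to work, is made in the liver by a chain of enzymes that starts and ends in mitochondria, and P450 reductase then passes electrons from NADPH to the finished P450 enzymes. The first enzyme of the chain is the rate-limiting one and is known to be held down by haem itself and to respond to fasting. The expression of 8 genes of this system is described here in mouse liver after inhibition of microRNA-29 (miR-29): Alas1, Alad, Uros, Urod, Cpox, Ppox and Fech, which encode enzymes of haem synthesis, and Por, which encodes P450 reductase. They were taken by symbol from the 21705 genes of the deposited table. Each of the 8 symbols had 1 row, and all 8 were among the 12486 genes that were tested, those whose mean value reached 10.

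The livers came from C57BL/6J female mice, 10 to 12 weeks old, each liver from a separate mouse. Of them, 6 mice received saline through the tail vein, and 6 received LNA29, a mixture of locked nucleic acids against miR-29a and miR-29b/c given at 20 mg/kg each. All 12 livers were taken 7 days after dosing, after an overnight fast, so that both groups were fasted, and no livers dosed with a control LNA were analysed here. RNA was extracted from whole liver, which holds hepatocytes and other cells. Bulk tissue of this kind cannot tell fewer cells of a type from less RNA per cell, and this holds for each gene below.

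Each value was taken as a gene's read estimate divided by that liver's upper quartile over genes that had reads, times 1000. Reads, here and below, were calculated back from these values. For this, the whole number of reads at each liver's upper quartile was chosen that made most values whole. Depth so calculated lay between 8217212 and 19062437 reads per liver in the saline group and between 7696081 and 15079236 in the LNA29 group. In this unit 1 read was worth between 9.80 and 24.4. All 96 values of the 8 genes were whole numbers of reads within 0.02 read, where reads split between similar genes would give fractions. Among all genes with reads, between 92.2% and 93.9% of the values in each liver were whole, so most genes share this. Albumin (Alb), the most abundant hepatocyte transcript, took between 35.7% and 46.9% of the reads. Saline replicate 49 stood apart: its albumin share of 35.7% compared with 43.6% to 46.9% in the other saline livers. Sparc, a matrix gene known as a miR-29 target, served as the check of the treatment and was 7252 ± 1384 in LNA29 livers against 2513 ± 238 in saline livers (SD, n = 6 each), a rise of 1.51 on the log2 scale (SE 0.14, limma adjusted p = 4.62e-05). Col1a1, a collagen gene and also a known target, was 391.8 ± 199 against 228 ± 80.4, a difference that did not pass the test (limma adjusted p = 0.688).

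The mature miR-29 sequences are shown because LNA29 was designed against them and because they set which transcripts could be bound directly. Their seed, bases 2 to 8, is in capitals and is the same in all 3 (RefSeq, GRCm38.p6). The mature miR-29a sequence lies at chr6:31062673-31062694 on the minus strand. That of miR-29b lies at chr6:31063025-31063047 on the minus strand and chr1:195037091-195037113 on the plus strand, and that of miR-29c at chr1:195037600-195037621 on the plus strand.
miR-29a-3p: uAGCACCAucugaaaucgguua
miR-29b-3p: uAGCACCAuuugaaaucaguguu
miR-29c-3p: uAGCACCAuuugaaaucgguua

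A perfect match to this seed, the letters TGGTGCT on the transcript strand, was searched in the 3′ UTRs of all coding transcripts of GENCODE release M21 (GRCm38). None of the 8 genes held one in any transcript. Of the 12121 tested genes with an annotated 3′ UTR, 1865 held one in their longest 3′ UTR (15.4%). The absence of a match says only that these letters are not in those windows.

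Levels were compared between genes per kilobase of the longest annotated transcript, and they differed widely along the chain. Por stood first in saline livers with 11416 ± 1229 per kilobase and was above each of the 7 haem synthesis genes in all 12 livers. Alad followed with 3831 ± 938 and Alas1 with 2502 ± 502, then Urod with 1868 ± 662 and Cpox with 1399 ± 658 (SD, n = 6 each). Their spreads met: Alad was above Alas1 in 10 of 12 livers, Alas1 above Urod in 9 and Urod above Cpox in 10. In the 6 saline livers these counts were 6, 6 and 4, and in the 6 LNA29 livers 4, 3 and 6. Fech, Uros and Ppox lay lowest, with 283 ± 82.4, 199 ± 45.3 and 174 ± 67.1 per kilobase, and Uros exceeded Ppox in only 8 livers. The order depended on the length used, because Alas1 and Fech have transcripts of unequal length. With the shortest transcript Alas1 reached 3995 ± 802 per kilobase and was above Alad in 6 of 12 livers, and Fech reached 1062 ± 309. By the value itself Por ranked 168th of the 12486 tested genes, Alas1 524th and Ppox 6426th.

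The question for each gene was whether its level in LNA29 livers differed from that in saline livers. No haem synthesis gene and not Por passed the test over all genes (limma, adjusted p under 0.05), 0 of 8 against a background of 0.16% of tested genes in either direction. At an unadjusted p under 0.05, 1 of 8 was lower in LNA29 livers where 5.97% of tested genes were, and 0 of 8 were higher where 1.95% were. The groups overlapped for each of the 8 genes, and 0.985% of tested genes had no overlap. The mean log2 value was lower in LNA29 livers for 6 of the 8 and for 61.4% of tested genes. The median log2 fold change of the 8 was -0.20, beside -0.09 over all tested genes. Counts this near to the background are no result about these genes as a group, and the single genes are taken in the order of the pathway.

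**Figure D1:**
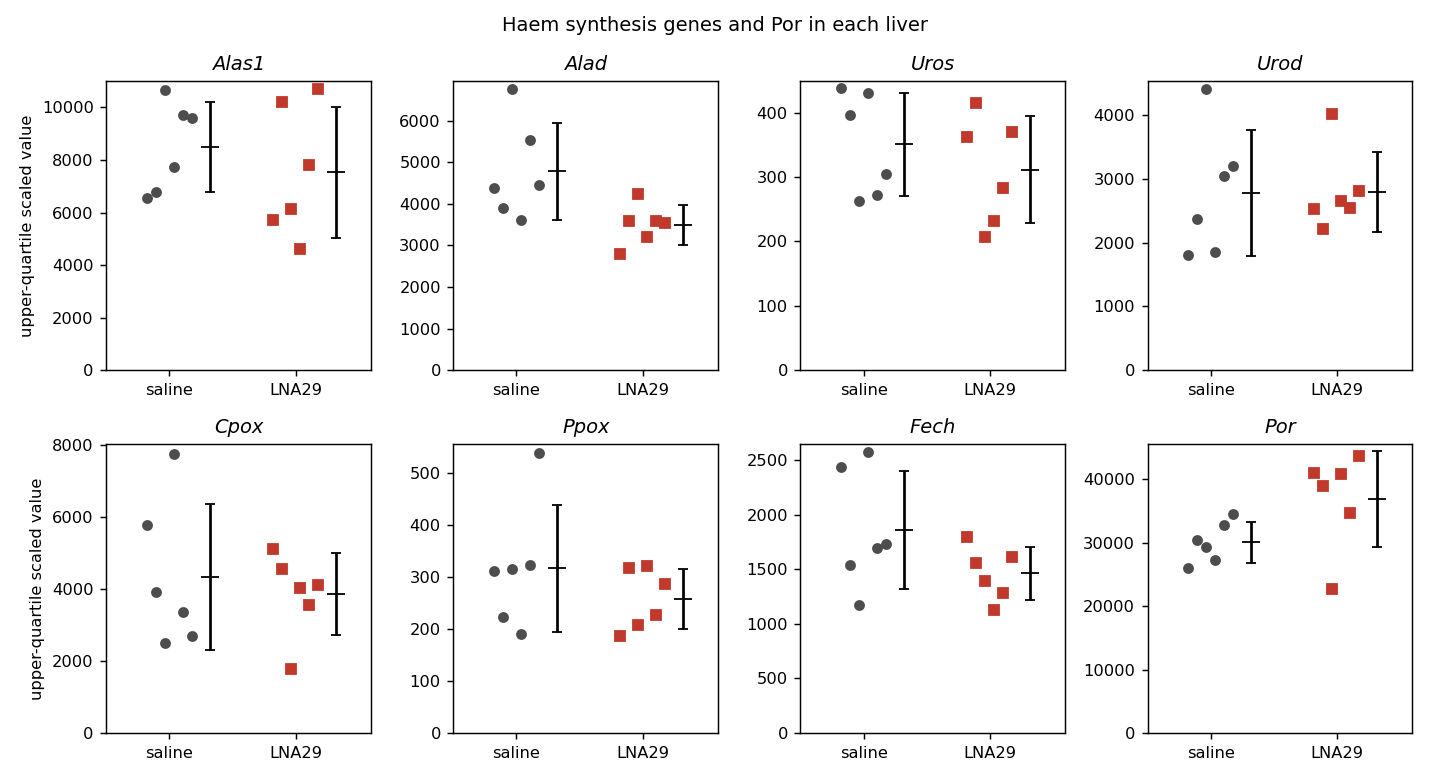
Upper-quartile scaled value of each gene (vertical axes, each starting at 0) in the 6 saline livers (circles) and the 6 LNA29 livers (squares), with the mean and SD of each group beside the points. The groups overlap in each panel, the LNA29 livers cover a narrow band for Alad (2788 to 4245), and 1 LNA29 liver lies far below the other 5 for Por.

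Alas1 (Entrez 11655, chromosome 9) encodes aminolaevulinate synthase, the rate-limiting first step. Saline livers had a lowest value of 6562, a median of 8659 and a highest of 10649, and LNA29 livers had 4625, 6972 and 10699. The LNA29 range enclosed the saline range, with replicates 46 and 54 near the top of it and replicate 50 at the bottom. The difference was -0.22 on the log2 scale (SE 0.20, 95% interval -0.65 to 0.21, limma adjusted p = 0.864, exact permutation p = 0.362). The interval reaches from a fold of 0.639 to 1.16, so neither a lower nor a higher level within those bounds could be told from no difference.

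Alad (Entrez 17025, chromosome 4) encodes the dehydratase that joins aminolaevulinate into porphobilinogen, and it was the gene of the chain with the largest difference. Saline livers had a lowest value of 3620, a median of 4426 and a highest of 6754, and LNA29 livers had 2788, 3560 and 4245. All 6 LNA29 livers were below the saline median. The overlap was that of LNA29 replicate 48, at 4245, with saline replicates 45 (3905) and 49 (3620). Every other LNA29 liver was below every saline liver. The means were 4778 ± 1169 and 3492 ± 482 (SD, n = 6 each) and differed by -0.43 on the log2 scale (SE 0.16, 95% interval -0.77 to -0.10, limma adjusted p = 0.453). The two-sided exact permutation p was 0.0130, in a design whose smallest possible p is 0.00216. Leaving out each liver in turn kept the log2 fold change between -0.50 and -0.32 and the exact permutation p between 0.00649 and 0.0455. Of 3 other scalings, a common median (log2 fold change -0.38, exact permutation p = 0.11) and TMM (-0.37, exact permutation p = 0.0758) took it past 0.05, and quantile normalization did not (-0.34, exact permutation p = 0.0152). The limma adjusted p stayed above 0.05 in each alternative run, with 0.0669 as its lowest value.

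The middle of the chain showed no difference that the livers could resolve. Uros (Entrez 22276, chromosome 7), whose product closes the porphyrin ring, had a lowest value of 263, a median of 350.4 and a highest of 438 in saline livers and 208, 323 and 415 in LNA29 livers. It rested on 11 to 43 reads per liver, and its log2 fold change was -0.18 (SE 0.24, exact permutation p = 0.403). Urod (Entrez 22275, chromosome 4), which trims the side chains of uroporphyrinogen, had a lowest value of 1812, a median of 2708 and a highest of 4404 in saline livers and 2220, 2604 and 4019 in LNA29 livers. Both groups had 1 liver far above the others, saline replicate 47 and LNA29 replicate 48, and the log2 fold change was 0.05 (SE 0.21, 95% interval -0.39 to 0.49, exact permutation p = 0.820). Cpox (Entrez 12892, chromosome 16), the mitochondrial coproporphyrinogen oxidase, spread most among saline livers, with a coefficient of variation of 47.0%. Its saline values ran from 2509 through a median of 3637 to 7740 and its LNA29 values from 1774 through 4064 to 5112. Saline replicates 43 and 49 were high and LNA29 replicate 48 was low, and the log2 fold change of -0.12 (SE 0.28, exact permutation p = 0.732) turned to 0.07 without saline replicate 49 and to 0.09 without LNA29 replicate 48. For Urod, leaving out saline replicate 43, saline replicate 49 or LNA29 replicate 48 likewise turned the sign, to between -0.06 and -0.05.

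Ppox and Fech encode the last steps, the oxidation to protoporphyrin and the insertion of iron. Ppox (Entrez 19044, chromosome 1) had a lowest value of 190, a median of 314 and a highest of 539 in saline livers and 188, 257 and 321 in LNA29 livers, on 11 to 55 reads. The groups shared most of their range apart from saline replicate 53, and the log2 fold change was -0.25 (SE 0.27, exact permutation p = 0.353). Fech (Entrez 14151) had a lowest value of 1175, a median of 1716 and a highest of 2580 in saline livers and 1125, 1479 and 1800 in LNA29 livers. Saline replicates 43 and 49 were high, and all but 1 of the LNA29 livers lay below the saline median. The log2 fold change of Fech was -0.31 (SE 0.19, 95% interval -0.71 to 0.09, limma adjusted p = 0.747, exact permutation p = 0.162). Without saline replicate 47, the lowest saline liver, it was -0.43 with an exact permutation p of 0.039, and in the other 11 such fits the p was at least 0.05.

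Por (Entrez 18984, chromosome 5) differed in the other direction. Saline livers had a lowest value of 26000, a median of 29907 and a highest of 34549, a coefficient of variation of 10.8% that was the smallest of the 8 genes. LNA29 livers had a lowest value of 22755, a median of 39881 and a highest of 43658. Of the 6 LNA29 livers, 5 were above every saline liver, and the other, replicate 48, was below every saline liver. The means were 30094 ± 3239 and 36963 ± 7573 (SD, n = 6 each), 0.27 apart on the log2 scale (SE 0.17, 95% interval -0.08 to 0.62, limma adjusted p = 0.747, exact permutation p = 0.117). The outcome rested on that 1 liver: without LNA29 replicate 48 the log2 fold change was 0.41 and the exact permutation p was 0.00433, whereas leaving out any other liver gave a p of at least 0.05. Even without it the limma adjusted p of 0.33 missed the threshold. With other scalings of all 12 livers the exact permutation p was 0.0498 (TMM, log2 fold change 0.34), 0.0606 (common median, 0.32) and 0.0801 (quantile normalization, 0.36).

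**Figure D2:**
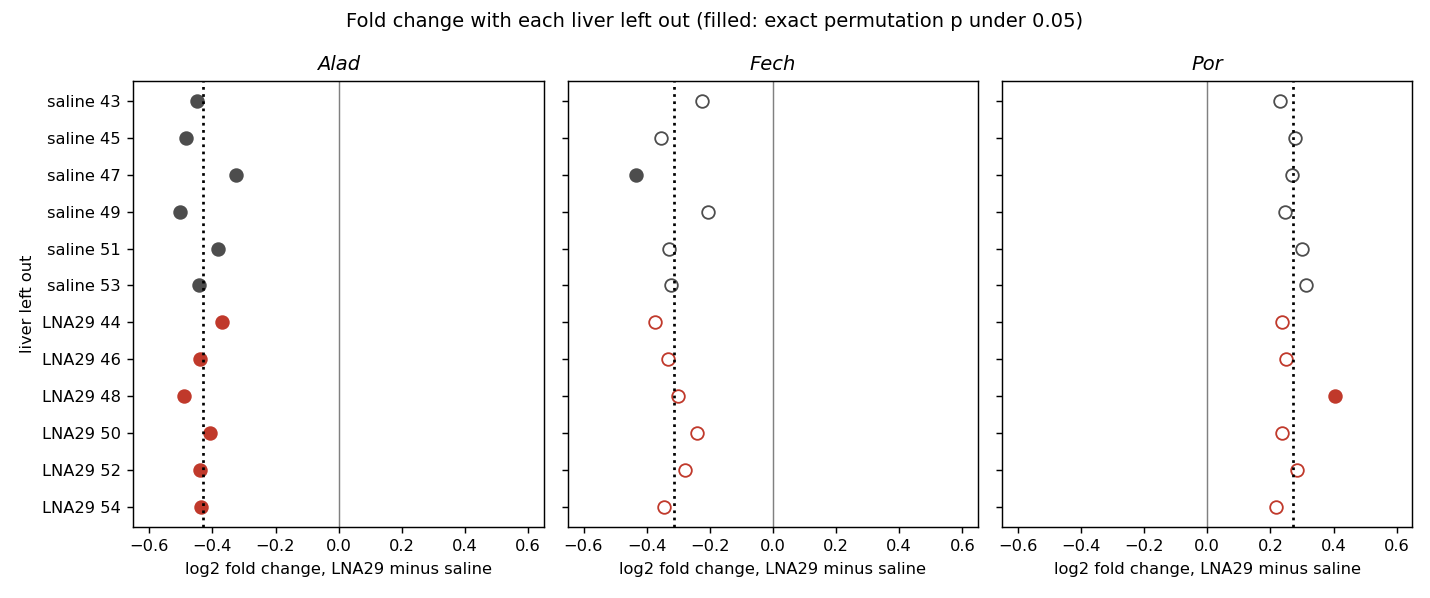
Log2 fold change, LNA29 minus saline (horizontal axis), of Alad, Fech and Por when the liver named on the vertical axis is left out, with the value over all 12 livers as a dotted line and filled points where the exact permutation p is under 0.05. Points for Alad are filled in all 12 rows, between -0.50 and -0.32, while Fech and Por have 1 filled point each, without saline replicate 47 and without LNA29 replicate 48.

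Apart from the treatment, 3 of the haem synthesis genes, Uros, Urod and Cpox, varied together or in opposition from liver to liver. Each of the 3 also followed the transcript length trend of the libraries described below, with r of 0.767, -0.853 and 0.937. That trend was not removed from the correlations between genes, and whether the pairs vary together beyond it was not tested. Log2 values were compared after each group's mean was subtracted, over the 12 livers and 28 pairs of genes, with 100000 permutations within groups and Benjamini-Hochberg adjustment over the pairs. Urod and Cpox ran opposite to each other (r = -0.911, rho = -0.888, permutation p = 0.00028, adjusted p = 0.00635), with r of -0.93 within the saline and -0.918 within the LNA29 livers and -0.873 without the 2 farthest livers. Uros went with Cpox (r = 0.808, rho = 0.86, permutation p = 0.00068, adjusted p = 0.00635) and against Urod (r = -0.808, rho = -0.853, permutation p = 0.00064, adjusted p = 0.00635). Both relations held without the 2 farthest livers, at 0.666 and -0.702. These 3 pairs were the only ones of the 28 with an adjusted p under 0.05, so that no pair with Alas1, Alad, Ppox, Fech or Por passed. An r of at least 0.808 in size was found for 1.8% of all pairs of tested genes and for 2.9% of pairs whose means reached 100, and the livers share their libraries. For Alas1 with Por, r was 0.303 (rho = 0.294, permutation p = 0.512, adjusted p = 0.623).

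Single genes also followed a property of the libraries. For each liver the trend with transcript length was taken as Spearman's rho, over 12140 genes, between a gene's longest transcript and the deviation of its log2 value from its mean over all livers. It ran from -0.295 to 0.498 in saline livers and from -0.245 to 0.257 in LNA29 livers, highest in saline replicate 49. Cpox followed it closely (r = 0.937, rho = 0.965, permutation p = 1e-05, the smallest that the permutations can give, adjusted p = 8e-05 over 8 genes). Fech (r = 0.835, rho = 0.748, permutation p = 0.00376, adjusted p = 0.00752) and Uros (r = 0.767, rho = 0.783, permutation p = 0.00252, adjusted p = 0.00672) went the same way. Urod (r = -0.853, rho = -0.825, permutation p = 0.00214, adjusted p = 0.00672) and Alad (r = -0.768, rho = -0.734, permutation p = 0.013, adjusted p = 0.0208) went the opposite way. Without the 2 farthest livers r was 0.909 for Cpox, 0.724 for Fech, 0.786 for Uros, -0.902 for Urod and -0.612 for Alad. Cpox and Fech have long transcripts, of 3097 and 6571 bases, and Alad and Urod short ones, of 1247 and 1489 bases, but length did not set the order: Alas1, of 3399 bases, had r of -0.299, and Uros, of 1762 bases, went with the long genes. An r of at least 0.767 in size, the lowest of these 5, was found for 16.9% of all tested genes and 22.5% of those whose mean reached 100. For Alas1, Ppox and Por the adjusted p was at least 0.245. In Por the sign differed between groups, with r of -0.747 over the 6 saline and 0.789 over the 6 LNA29 livers.

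**Figure D3:**
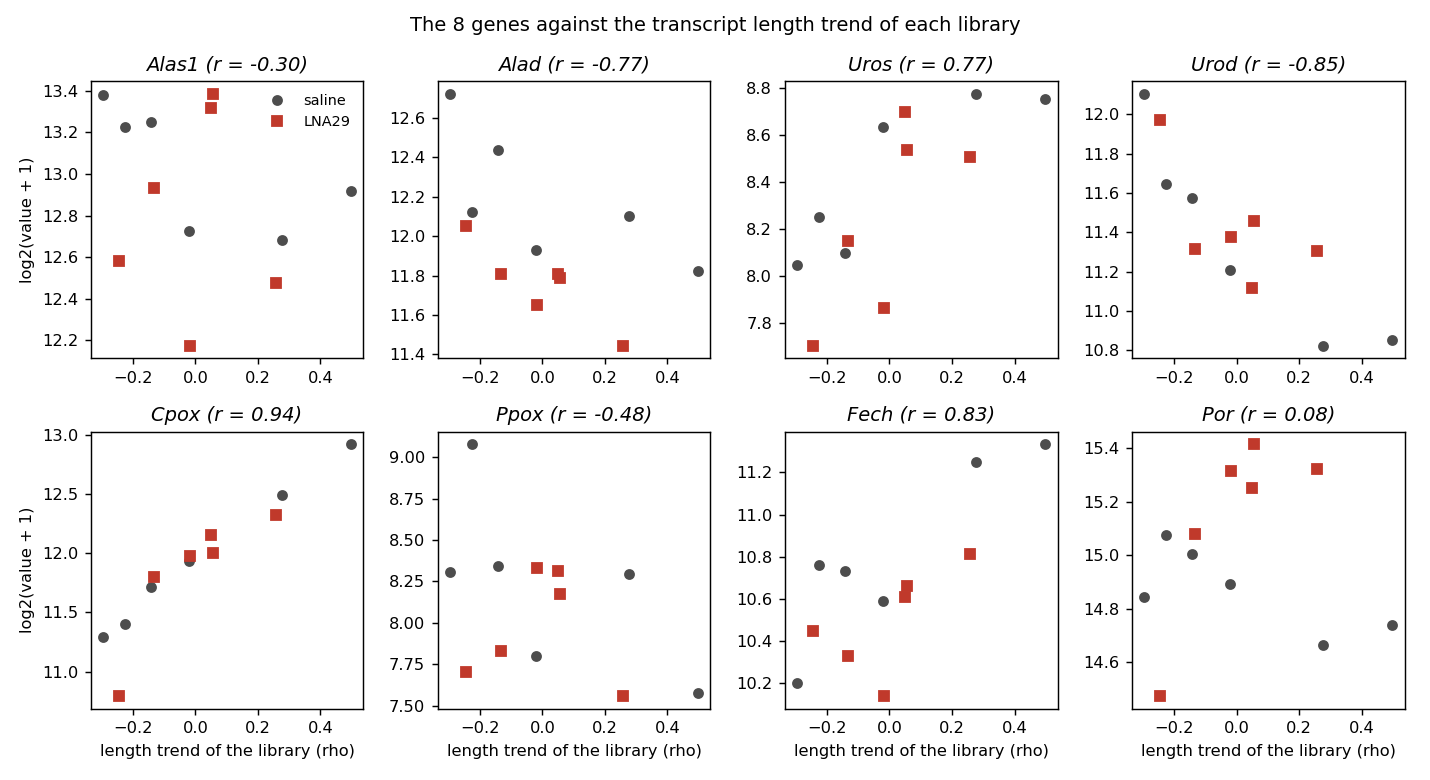
Log2(value + 1) of each gene (vertical axes) against the transcript length trend of the library (horizontal axes, Spearman's rho over 12140 genes) in saline (circles) and LNA29 (squares) livers, with r after subtraction of group means. Cpox is higher along the trend (r = 0.94) and Urod lower (r = -0.85), while Por shows no common slope (r = 0.08).

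With this trend added to the fit as a covariate, a choice made after the data were seen, the differences kept their direction and narrowed in error. Alad had a log2 fold change of -0.45 (SE 0.11, 95% interval -0.69 to -0.21, limma adjusted p = 0.0669). Fech had -0.29 (SE 0.13, 95% interval -0.55 to -0.02, limma adjusted p = 0.356) and Por 0.27 (SE 0.15, 95% interval -0.04 to 0.59, limma adjusted p = 0.495). The fit takes the same slope on the trend in both groups, whereas for Por r was -0.747 in saline and 0.789 in LNA29 livers. The SE of Cpox went from 0.28 to 0.12 and its log2 fold change was -0.07. None of the 8 passed the adjusted threshold, while the number of genes called over the whole table went from 20 to 125.

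**Figure D4:**
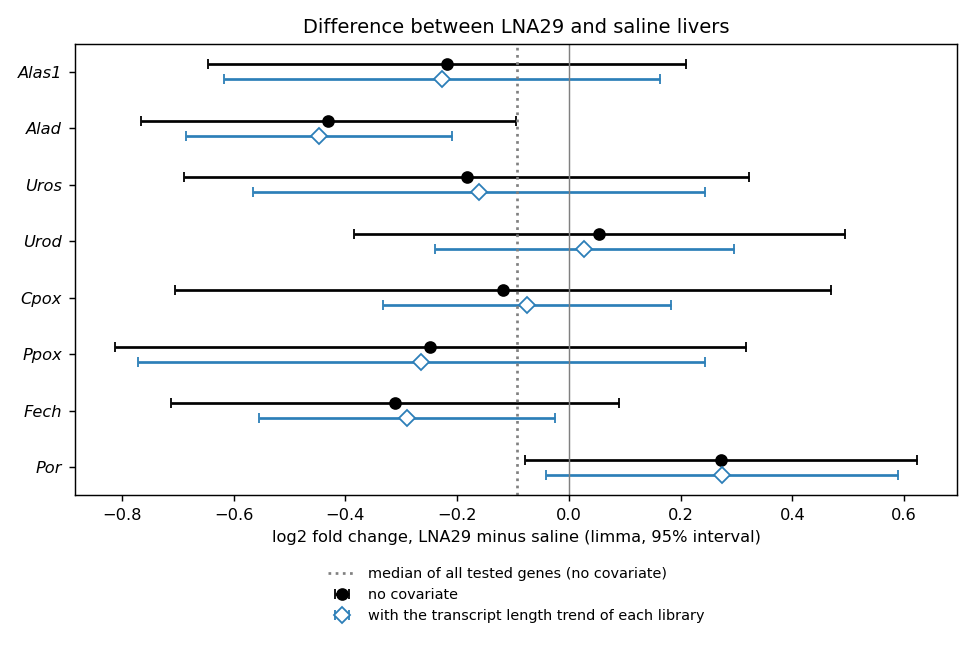
Log2 fold change, LNA29 minus saline (horizontal axis), with its 95% interval for each of the 8 genes, without a covariate (filled circles) and with the transcript length trend of each library (open diamonds), beside the median of all tested genes (dotted, -0.09). The interval of Alad lies below 0 in both fits, that of Fech only with the covariate, and that of Por crosses 0 in both.

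Promoter sequences are shown for Alas1, the rate-limiting step, and for Uros, Urod and Cpox, the 3 genes of the correlated pairs. These 3 also followed the length trend of the libraries. Each sequence runs from 250 bases before to 50 after an annotated start (RefSeq, GRCm38.p6), on the gene's strand. Capitals mark 3 motifs searched on both strands: the NRF1 box, the E-box CACGTG and the GC box GGGCGG, none of which contains another. They lie at chr9:106247681-106247980 for Alas1, chr7:133709246-133709545 for Uros and chr4:116994364-116994663 for Urod, on the minus strand, and at chr16:58669958-58670257 on the plus strand for Cpox.
Alas1: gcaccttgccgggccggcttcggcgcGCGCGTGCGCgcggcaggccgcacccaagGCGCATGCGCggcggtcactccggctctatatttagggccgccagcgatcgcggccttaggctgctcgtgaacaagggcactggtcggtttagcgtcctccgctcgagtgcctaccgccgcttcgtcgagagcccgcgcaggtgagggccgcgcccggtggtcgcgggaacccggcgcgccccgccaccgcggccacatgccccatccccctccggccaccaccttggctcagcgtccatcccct
Uros: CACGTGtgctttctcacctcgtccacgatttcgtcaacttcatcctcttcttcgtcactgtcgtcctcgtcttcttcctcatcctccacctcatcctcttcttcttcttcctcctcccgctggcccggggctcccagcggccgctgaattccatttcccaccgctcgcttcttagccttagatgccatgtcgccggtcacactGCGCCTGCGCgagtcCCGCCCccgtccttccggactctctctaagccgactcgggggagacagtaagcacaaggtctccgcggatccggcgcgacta
Urod: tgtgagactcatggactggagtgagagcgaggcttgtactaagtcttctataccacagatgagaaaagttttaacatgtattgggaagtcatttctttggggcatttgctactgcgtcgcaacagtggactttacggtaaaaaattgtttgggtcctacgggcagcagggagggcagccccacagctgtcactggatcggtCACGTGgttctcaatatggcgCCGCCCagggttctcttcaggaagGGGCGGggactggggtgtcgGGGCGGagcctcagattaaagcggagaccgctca
Cpox: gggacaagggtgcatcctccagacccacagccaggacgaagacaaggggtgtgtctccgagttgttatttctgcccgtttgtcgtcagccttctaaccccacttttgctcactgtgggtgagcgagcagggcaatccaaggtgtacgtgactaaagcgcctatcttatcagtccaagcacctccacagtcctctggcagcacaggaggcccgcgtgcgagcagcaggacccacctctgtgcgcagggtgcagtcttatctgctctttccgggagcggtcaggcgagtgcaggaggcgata

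The table held 10 promoters of 7 of the 8 genes, since Alas1, Alad and Uros had 2 starts each. Counted per promoter, 3 of 10 held an NRF1 box, both of Alas1 and the printed one of Uros, where 4.6% of the 32851 promoters in the table do. An E-box was in 4 of 10, from Alad, Uros and Urod, against 7.15%, and a GC box in 7 of 10 against 35.7%, with that of Alas1 at the start that is not printed. The 2 windows of Alas1 overlap and hold the same 2 NRF1 boxes, and those of Alad overlap and share GC boxes. Counted by gene, 2 of 7 held an NRF1 box, 3 an E-box and 6 a GC box. The printed Cpox promoter held none of the 3. Nrf1, the gene of the factor that binds the NRF1 box, was 652 ± 140 in saline and 711 ± 96.7 in LNA29 livers (SD, n = 6 each, exact permutation p = 0.340). A match is a description of the letters, and binding was not measured.

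Among 3116 genes whose mean reached 1000, the profiles most like that of Alas1 over the 12 livers, group means subtracted, were those of Abcb8 (r = 0.923), Mfsd2a (r = 0.854) and Agpat3 (r = 0.848). Those most like Por were Slc37a4 (r = 0.973), Psmc1 (r = 0.953) and Eif4ebp3 (r = 0.945). The points share their libraries, and no test is attached to these ranks.

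The genes around the chain were counted by lists. Alas2, the erythroid form of the first enzyme, was 872 ± 307 in saline and 974 ± 535 in LNA29 livers (SD, n = 6 each, log2 fold change 0.04, SE 0.32, exact permutation p = 0.916). Of 4 genes of haem breakdown none passed the test, also at an unadjusted p under 0.05. Hmox1, the inducible haem oxygenase, was 686 ± 345 and 886 ± 379 (0.44, SE 0.33, exact permutation p = 0.290), and Blvrb, a biliverdin reductase, was 3263 ± 1280 and 2992 ± 541 (exact permutation p = 0.812). None of 18 genes of haem and porphyrin transport and binding passed, also at an unadjusted p under 0.05, with a median log2 fold change of -0.16.

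Electron transfer to P450 enzymes, the work of P450 reductase, has partners of its own, and 0 of 7 passed the adjusted test. At an unadjusted p under 0.05, 3 were lower and 1 was higher, where 5.97% and 1.95% of all tested genes were. The groups did not overlap for 0.985% of all tested genes. Cyb5b, the cytochrome b5 of the outer mitochondrial membrane, was 4820 ± 985 in saline and 2943 ± 206 in LNA29 livers (SD, n = 6 each), with each LNA29 liver below each saline liver (log2 fold change -0.69, SE 0.14, limma adjusted p = 0.0681). Cyb5r1, a reductase of the cytochrome b5 family, was 416 ± 94.9 and 720 ± 203, with each LNA29 liver above each saline liver (0.78, SE 0.22, limma adjusted p = 0.223). Cyb5r3, the main cytochrome b5 reductase, was 47477 ± 10225 and 33845 ± 6412 (-0.48, SE 0.18, limma adjusted p = 0.459), and Cyb5a, the microsomal cytochrome b5, was 26466 ± 7575 and 22875 ± 4238 (-0.19, SE 0.18, limma adjusted p = 0.868). Fdx1l, a mitochondrial ferredoxin, had a lowest value of 1, the value given for no reads, in LNA29 livers and of 127 in saline livers (limma adjusted p = 0.485).

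**Figure D5:**
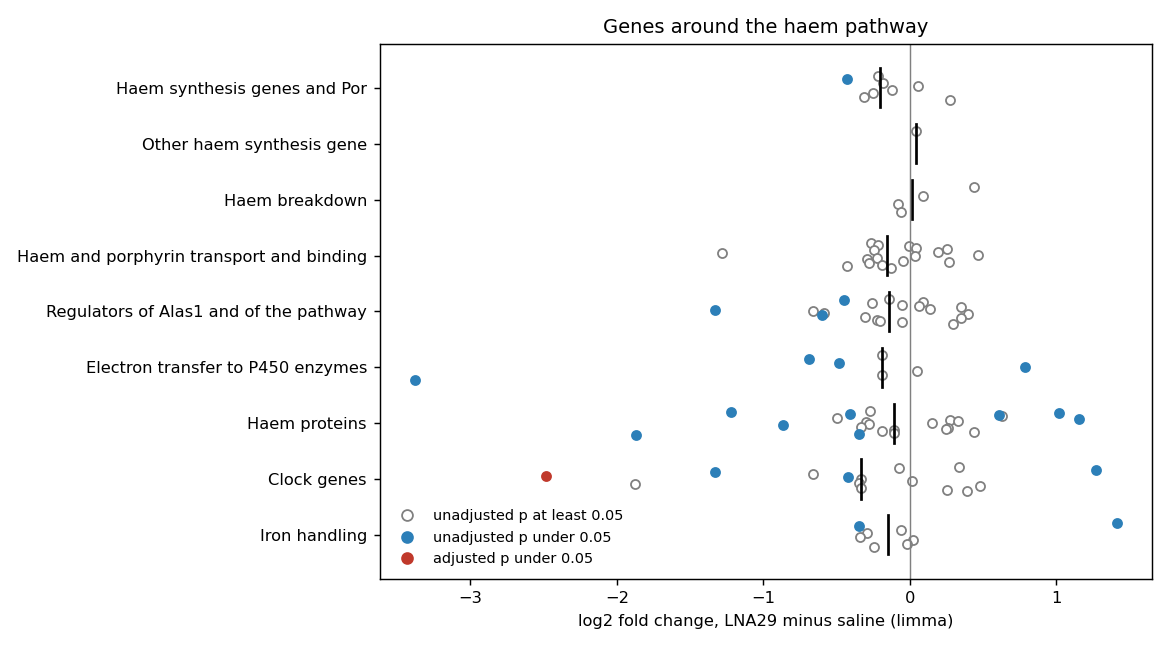
Log2 fold change, LNA29 minus saline (horizontal axis), of each tested gene among the 7 haem synthesis genes with Por and in 8 lists around them (rows), with the median of each list as a vertical bar and colour for the unadjusted and adjusted p under 0.05. In each row with more than 1 gene points lie on both sides of 0, and the only gene with an adjusted p under 0.05 is the clock gene Dbp.

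Among 23 haem proteins and enzymes fed by P450 reductase, 0 passed the adjusted test. At an unadjusted p under 0.05, 3 were higher and 5 lower, where 1.95% and 5.97% of all tested genes were. Cyp2c40, an arachidonate-metabolising P450 with close paralogs, was 14862 ± 1742 in saline and 22650 ± 2606 in LNA29 livers without overlap (0.61, SE 0.13, limma adjusted p = 0.0981). Cyp3a11, a main drug-metabolising P450, was 110626 ± 46621 and 242295 ± 91122 (1.15, SE 0.29, limma adjusted p = 0.172). Cyp2a5, a coumarin hydroxylase, was 19978 ± 9079 and 8531 ± 4659 (-1.22, SE 0.33, limma adjusted p = 0.210), and Sqle, a flavoprotein of sterol synthesis, was 232 ± 219 and 50.4 ± 19.7 on at most 5 reads in LNA29 livers (limma adjusted p = 0.222).

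Of 19 regulators of Alas1 and of the pathway, 0 passed the adjusted test and 3 were lower at an unadjusted p under 0.05. Over all tested genes 5.97% were lower and 1.95% higher at that threshold. These shares are also the background of the clock and iron genes below. Nr1d1, the haem-binding repressor REV-ERB alpha of the clock, was 5348 ± 1693 in saline and 2285 ± 1326 in LNA29 livers (-1.33, SE 0.32, limma adjusted p = 0.139). Nr1i3, the receptor CAR that drives P450 genes, was 7239 ± 930 and 5362 ± 1204 (-0.45, SE 0.15, limma adjusted p = 0.347). Ncor1, a corepressor, was 1064 ± 526 and 678 ± 206 (-0.60, SE 0.28, limma adjusted p = 0.624). Nr1i2, the receptor PXR, and Ppargc1a, the fasting-induced coactivator of Alas1, had log2 fold changes of 0.09 (SE 0.19) and -0.14 (SE 0.47), with exact permutation p of 0.684 and 0.816. Of 15 tested clock genes 1 passed, and 1 was higher and 3 lower at an unadjusted p under 0.05: Dbp, a clock output factor, was 190 ± 112 in saline and 29.1 ± 9.95 in LNA29 livers without overlap (limma adjusted p = 0.0468). Since the LNA29 livers held at most 2.30 reads of Dbp, no fold is given, and it remained called in 5 of 22 alternatives and in 1 of the 12 fits without a liver, that without saline replicate 45. Npas2, a clock activator, was 128 ± 61.2 and 310 ± 135 (1.27, SE 0.38, limma adjusted p = 0.265). Among 8 iron genes 0 passed, with 1 higher and 1 lower at an unadjusted p under 0.05. Tfrc, the transferrin receptor, was 112 ± 106 and 224 ± 70.0 (1.42, SE 0.54, limma adjusted p = 0.471). It rested on 1 to 31 reads in saline and 7 to 17 in LNA29 livers. Without saline replicate 47 its log2 fold change was 1. Its paralog Tfr2 was 13843 ± 972 and 10923 ± 1321 (-0.35, SE 0.12, limma adjusted p = 0.413).

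Markers of other cells that could carry these transcripts were summed in each liver. Precursors of red blood cells make haem and carry Alas2. Of the 7 listed markers used for red blood cells and their precursors, 4 were in the table and tested, of which 0 passed. Their sum was between 36508 and 154145 in saline and between 37281 and 171276 in LNA29 livers. No marker passed among 7 for macrophages, 5 for endothelium, 5 for stellate cells, 5 for bile duct and 6 for hepatocytes, where the albumin value was 73822621 ± 23994964 in saline and 79545331 ± 5790992 in LNA29 livers (SD, n = 6 each, exact permutation p = 0.699). At an unadjusted p under 0.05 the macrophage marker Marco alone was higher in LNA29 livers, where 1.95% of all tested genes were. The macrophage sum was between 6734 and 9961 in saline and between 5964 and 14301 in LNA29 livers. The part of these cells in the values of the 8 genes was not tested.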

How the data were processed

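Liver mRNA was sequenced as single reads, mapped by the authors with MapSplice2, and counted per gene with RSEM. The submitters' processing notes name mm9; the annotation is not given in the sources used here. The deposited signal values were taken as RSEM gene estimates divided by each library's upper quartile over genes that had reads and multiplied by 1000. A value of 1 was taken as no reads, and reads were calculated back from the values. The authors' group means, signed fold change and one-tailed p-value were not used, nor were 3 unnamed columns. Values were compared as log2(value + 1) with limma 3.58.1 (R 4.3.3) with a trend over 12486 genes (mean of 10 or more) and Benjamini-Hochberg adjustment at 0.05, and single genes with a two-sided exact permutation test. On simulated data limma recovered 166 of 200 changed genes among 171 called. Recovery at the levels and log2 fold changes of the 8 genes was not tested separately. Transcripts came from GENCODE M21 (GRCm38), which is not the authors' build. Python 3.11.15 with numpy 2.4.6, scipy 1.17.1, pandas 2.3.3 and matplotlib 3.10.9 was used.

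The genes and lists were chosen with earlier results of these data known, and 2 listed genes are not reported here. List genes are named where the list of names held them, where the adjusted p was under 0.05, where groups did not overlap, or where they were among the 3 largest fold changes of a list with a mean of at least 100 and an unadjusted p under 0.05. The last condition was added after values were seen. Alternatives were other pseudocounts, filters, scalings and weights, values beyond 1.5 SD left out, each liver left out, and the length trend.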

Additional observations from a re-analysis of the deposited data

Results flagged for a closer look

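Each group of 6 livers was checked for a single liver set apart from the others on the log2 scale by Dixon's test at the 95% level for the 8 genes and the other named genes, 64 groups in all. Chance flags about 1 in 20, or 3.2 groups here, and 8 were flagged. LNA29 replicate 48 was set apart below the others for both Por, at 22755 where the next liver was at 34642, and Cpox, at 1774 where the next was at 3566. It was set apart above the others for Cyb5r1, at 1113 with the next at 700. Saline replicate 49 was lowest for Alb (29303980), Cyp2c40 (11591) and Tfr2, listed as Trfr2 (11920). The others were Nr1i3 in LNA29 replicate 54 (7697, the highest) and Tfrc in LNA29 replicate 44 (87.5, the lowest).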

How the results depend on the processing

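None of the 8 genes passed the adjusted threshold in limma with all livers or under any of the 22 alternatives, where 1 of 8 (Alad) had an unadjusted p under 0.05 with all livers. The count tests on recovered reads (edgeR, DESeq2) were not run, because the values were not whole reads throughout. No paired analysis was possible because the liver numbers differ between the groups. Over the 8 genes the median log2 fold change stayed between -0.29 and -0.12. Alas1, Alad, Uros, Ppox, Fech and Por kept their direction in all 22. Urod turned to -0.068 with array weights, and Cpox to 0.14 with array weights and to 0.28 with values beyond 1.5 SD left out. With each liver left out, Urod ranged from -0.055 to 0.20 and Cpox from -0.25 to 0.091. With values beyond 1.5 SD left out, Por was at 0.41 (exact permutation p = 0.00433). For Por this left out only LNA29 replicate 48, so these are the same values as without that liver. Why Urod and Cpox turned was not tested.

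Over the whole table, 20 genes were called, and 5 with all genes tested, 10 with a common median, 58 with array weights, 217 with values beyond 1.5 SD left out, 125 with the length trend (chosen after seeing the data), and between 1 and 29 with each liver left out, 1 without saline replicate 43, LNA29 replicate 50, 52 or 54, and 29 without LNA29 replicate 48. Of the other named genes, Blvrb turned to 0.05 with quantile normalization and to 0.00276 with TMM scaling, and with values beyond 1.5 SD left out the turned values were 0.11 for Blvrb, -0.17 for Alas2, -0.16 for Nr1i2 and -0.0155 for Alb. Nr1i2 was at -0.00183 with array weights. With each liver left out Alas2 ranged from -0.169 to 0.253, Blvrb ranged from -0.204 to 0.109, Nr1i2 ranged from -0.04 to 0.193, Ppargc1a ranged from -0.472 to 0.183 and Alb ranged from -0.0493 to 0.301.

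Genes with few reads limit the resolution: Uros and Ppox rested on 11 to 55 reads, and their SE of 0.24 and 0.27 hides moderate changes.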
